A study of Mus musculus with 4 samples.

Results

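The 8 genes described here encode the major proteins of mouse milk, and they were measured in the mammary gland of pubertal females, before pregnancy. They were given as a list of Ensembl IDs with their symbols, by what they encode, and all 8 are among the 28399 IDs of the deposited table. In the order of the list they are Csn1s1 (ENSMUSG00000070702), Csn2 (ENSMUSG00000063157), Csn3 (ENSMUSG00000001622), Csn1s2a (ENSMUSG00000061937), Csn1s2b (ENSMUSG00000061388), Wap (ENSMUSG00000000381), Lalba (ENSMUSG00000022991) and Glycam1 (ENSMUSG00000022491). The symbols are those given with the list, since the table itself holds IDs only.

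RNA came from terminal end buds (TEBs), the bulbous tips that lead the growing ducts at puberty, and from ducts, the epithelial tubes behind them. Both were freed by collagenase digestion and microdissection from the inguinal glands of C57/BL6 females, with no treatment, transgene or deletion named. The labels give an age of 5 to 6 weeks and, in the account of tissue collection, of 6 to 7 weeks. There were 2 TEB arrays and 2 duct arrays, described by the submitters as technical replicates of pools of about 300 to 400 structures. P-values therefore measure the spread between arrays, not between mice.

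Milk proteins are made by the luminal secretory cells of the alveoli, which form in pregnancy. Prolactin, acting through its receptor, the kinase JAK2 and the transcription factor STAT5, switches their genes on together with glucocorticoids, and low levels of some of these transcripts are known in luminal cells before pregnancy. The caseins encoded by Csn1s1, Csn2, Csn1s2a and Csn1s2b bind calcium phosphate and form the milk micelle, and the casein of Csn3 (kappa-casein) coats and stabilises it. Wap (whey acidic protein) and Lalba (alpha-lactalbumin, the subunit that makes a galactosyltransferase produce lactose) are whey proteins. Glycam1 encodes a mucin-like glycoprotein that is secreted into milk and is also made by the high endothelial venules of lymph nodes, where it carries ligands of L-selectin.

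The promoters of 4 of the genes are shown because 3 of them, Csn1s1, Glycam1 and Lalba, had the largest differences between the structures, while Csn2, the casein gene next to Csn1s1, had a log2 difference of only -0.16. Each window runs from 250 bases before to 50 bases after a RefSeq gene start and is written 5′ to 3′ on the strand of the gene, in build GRCm38.p6. Csn1s1 lies on the plus strand at chr5:87665958-87666257. The other 3 lie on the minus strand, Glycam1 at chr15:103565032-103565331, Lalba at chr15:98482634-98482933 and Csn2 at chr5:87699376-87699675. Capitals mark matches to TTCNNNGAA, the core of the element that STAT5 binds, which reads the same on both strands.
Csn1s1: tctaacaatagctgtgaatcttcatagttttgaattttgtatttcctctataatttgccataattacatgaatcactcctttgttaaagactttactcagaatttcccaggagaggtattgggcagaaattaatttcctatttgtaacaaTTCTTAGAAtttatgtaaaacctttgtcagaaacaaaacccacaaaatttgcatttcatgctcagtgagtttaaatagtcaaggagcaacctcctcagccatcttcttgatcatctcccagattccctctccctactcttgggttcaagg
Glycam1: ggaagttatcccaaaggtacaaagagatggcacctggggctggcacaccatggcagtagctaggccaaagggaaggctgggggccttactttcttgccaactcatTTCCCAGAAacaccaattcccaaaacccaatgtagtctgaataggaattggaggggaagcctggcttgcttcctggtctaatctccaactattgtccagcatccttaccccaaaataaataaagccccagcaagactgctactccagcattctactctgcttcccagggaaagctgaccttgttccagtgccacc
Lalba: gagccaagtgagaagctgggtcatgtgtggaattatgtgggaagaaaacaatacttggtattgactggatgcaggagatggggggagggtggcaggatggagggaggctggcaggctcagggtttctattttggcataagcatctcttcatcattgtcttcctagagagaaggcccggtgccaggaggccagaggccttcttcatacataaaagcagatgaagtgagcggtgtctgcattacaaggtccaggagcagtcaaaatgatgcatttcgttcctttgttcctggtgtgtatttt
Csn2: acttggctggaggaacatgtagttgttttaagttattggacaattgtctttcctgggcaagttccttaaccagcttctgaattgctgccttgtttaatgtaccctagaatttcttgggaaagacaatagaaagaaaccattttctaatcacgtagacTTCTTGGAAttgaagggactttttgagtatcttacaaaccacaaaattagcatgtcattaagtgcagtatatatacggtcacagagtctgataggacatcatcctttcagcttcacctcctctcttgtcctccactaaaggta

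Of the 8 genes, 6 had a promoter window in the RefSeq table, and 4 of these windows hold the motif. It starts 100 bases before the gene start in Csn1s1 (TTCTTAGAA), 93 before it in Csn2 (TTCTTGGAA) and 145 before it in Glycam1 (TTCCCAGAA). The Csn1s2a window holds it 20 bases after the start, within the transcript (TTCTTAGAA), and the windows of Wap and Lalba have no match. Among all 32851 promoter windows of this length, 8.3% hold the motif. A match is a description of the letters and not of binding. The 5 casein genes lie together on chromosome 5, where Csn1s1, Csn2, Csn1s2a and Csn1s2b follow each other with 0 other protein-coding genes between neighbours, and 3 separate Csn1s2b from Csn3. Wap is on chromosome 11, and Lalba and Glycam1 are on chromosome 15 with 151 protein-coding genes between them.

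The values are log2 probe signals after RMA (robust multi-array average), run by the authors. Array medians were 6.41 and 6.35 in TEBs and 6.34 and 6.2 in ducts, and over all IDs the median TEB minus duct difference was 0.11 log2 units. Arrays of one structure correlated across IDs with r = 0.979 for TEBs and 0.968 for ducts, and arrays of different structures with r = 0.948 to 0.961. Detection calls were not used here, so the place of a value among all IDs of its array is the only guide to how near background it lies. It does not rank the abundance of different transcripts. Lower quartiles of the arrays were 4.53 in both TEB arrays and 4.48 and 4.49 in the duct arrays.

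**Figure D1:**
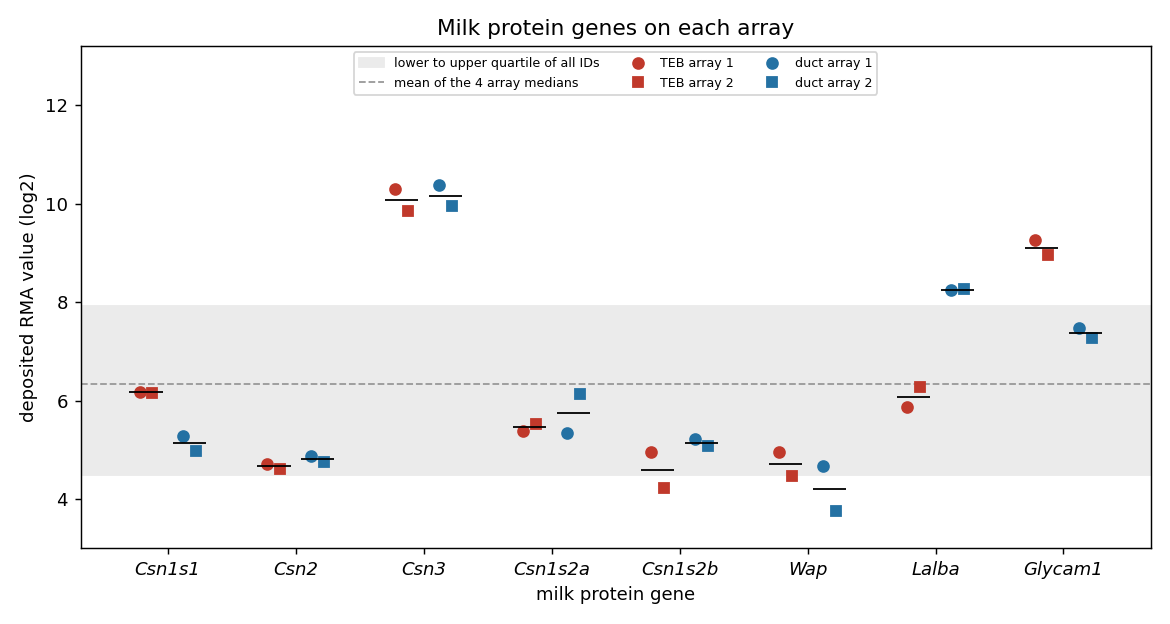
Deposited log2 value of each milk protein gene (horizontal axis) on the 2 TEB arrays (red, left) and the 2 duct arrays (blue, right), with black bars for group means. The grey band spans the quartiles of all 28399 IDs. Csn3 is above the band on all 4 arrays, Lalba is above it in ducts only, Glycam1 in TEBs only, and Csn2, Csn1s2b and Wap lie near its lower edge.

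Among the casein genes, Csn1s1 was higher in TEBs and the others were not separated by as much as 2-fold. Csn1s1 measured 6.18 and 6.15 in TEBs, against 5.28 and 4.98 in ducts, on the log2 scale. Both TEB arrays lay above both duct arrays, with 0.87 log2 units between the closest pair. Means were 6.17 ± 0.02 in TEBs and 5.13 ± 0.21 in ducts (SD, n = 2 each), so TEBs were higher by 1.04 log2 units (SE 0.19) or 2.05-fold (95% interval 1.44 to 2.94). After quantile normalization or median centring of the arrays the difference was 0.96 and 0.92, just under 2-fold. The limma adjusted p, over all IDs, was 0.13. The TEB values had 46.4% and 46.7% of all IDs below them on their arrays and the duct values 34.7% and 31.6%, so the gene was below the array median in both structures. Its signal over background in ducts is unknown, which leaves the size of the fold uncertain. Here and below, a lower signal in such bulk RNA can mean fewer cells that express a gene or less RNA per cell, which cannot be told apart.

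Csn2, the beta-casein gene and the direct neighbour of Csn1s1, measured 4.72 and 4.6 in TEBs, against 4.87 and 4.76 in ducts. The TEB arrays were both below the duct arrays, but by only 0.05 log2 units at the closest. The log2 difference was -0.16 with SE 0.17 (95% interval -0.62 to 0.31, limma adjusted p = 0.65). That interval holds no change in signal of 2-fold or more either way. It rests on an SD within structures of 0.08. The median SD was 0.34 over the 3568 IDs whose mean lay within 0.5 log2 units of its own. When limma's prior variance followed brightness, the SE was 0.31. All 4 values were near the lower quartile of their arrays, with 25.8% to 29.6% of IDs below them. The signal of Csn2 over background is unknown, which leaves the size of any fold uncertain.

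Csn1s2a and Csn1s2b, the other calcium-sensitive casein genes, also had low values. Csn1s2a measured 5.39 and 5.53 in TEBs, against 5.35 and 6.14 in ducts, and the groups overlapped. The 2 duct arrays were 0.79 log2 units apart, more than the difference of -0.29 between the structures (95% interval -1.12 to 0.55, limma adjusted p = 0.64). Csn1s2b measured 4.96 and 4.22 in TEBs, against 5.22 and 5.07 in ducts. The TEB arrays were below the duct arrays by 0.11 at the closest and 0.73 apart from each other. Its log2 difference was -0.55 (95% interval -1.35 to 0.25, limma adjusted p = 0.38). For both genes the interval includes no change and also a level 2-fold lower in TEBs.

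Csn3, the kappa-casein gene, was the only one of the 8 with a value above the upper quartile on all 4 arrays. It measured 10.3 and 9.84 in TEBs, against 10.37 and 9.95 in ducts, and the groups overlapped. Between 94% and 96.4% of all IDs lay below it on each array. Means were 10.07 ± 0.32 in TEBs and 10.16 ± 0.29 in ducts (SD, n = 2 each), with a log2 difference of -0.09 (95% interval -0.79 to 0.61, limma adjusted p = 0.88). Replicate arrays of this gene differed more than was usual at its signal. The SD within structures was 0.31, against a median of 0.12 over the 1026 IDs whose mean lay within 0.5 log2 units of its own.

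Of the whey protein genes, Lalba was lower in TEBs and Wap was low throughout. Lalba measured 5.87 and 6.28 in TEBs, against 8.24 and 8.26 in ducts. The groups were 1.96 log2 units apart at the closest, and the duct arrays differed from each other by 0.02. Means were 6.08 ± 0.29 in TEBs and 8.25 ± 0.02 in ducts (SD, n = 2 each), a log2 difference of -2.17 with SE 0.22. The duct signal was 4.5-fold that of TEBs (95% interval 3.03 to 6.69). Its limma p was 0.00029 unadjusted and 0.066 after adjustment, which was the smallest adjusted value in the table and was shared with other IDs. When limma's prior variance followed brightness, adjusted p was 0.0071. The difference was the 38th lowest of the 28399, whose range was -4.31 to 3.76. On its arrays Lalba had 41.9% and 48.8% of IDs below it in TEBs, against 81.7% and 83.6% in ducts. In TEBs it was thus below the array median. Its signal over background there is unknown, which leaves the size of the fold uncertain.

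Wap measured 4.95 and 4.46 in TEBs, against 4.67 and 3.76 in ducts, and the groups overlapped. Between 15.6% and 30.1% of IDs lay below it on each array. The 2 duct arrays were 0.91 log2 units apart, and the difference of 0.49 between the structures had a 95% interval of -0.52 to 1.51 (limma adjusted p = 0.51). A 2-fold rise in TEBs lies within that interval, as does no change.

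Glycam1 was higher in TEBs. It measured 9.25 and 8.95 in TEBs, against 7.48 and 7.26 in ducts. All TEB values were above all duct values, by 1.47 log2 units at the closest, and arrays of one structure differed by 0.3 in TEBs and 0.22 in ducts. Means were 9.1 ± 0.21 in TEBs and 7.37 ± 0.15 in ducts (SD, n = 2 each), so TEBs were higher by 1.73 log2 units (SE 0.21) or 3.32-fold (95% interval 2.26 to 4.87). Its limma p was 0.00067 unadjusted and 0.073 after adjustment, and adjusted p was 0.0077 with a prior variance that followed brightness. The difference was the 314th highest of the 28399. The gene had 90.1% and 88% of IDs below it in TEBs, against 69.9% and 68.9% in ducts. The inguinal gland holds a lymph node, and Glycam1 marks its high endothelial venules. Markers of those venules and of lymphocytes were not analysed here, since the table gives no symbols, and the part of such cells in the Glycam1 difference was not tested.

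**Figure D2:**
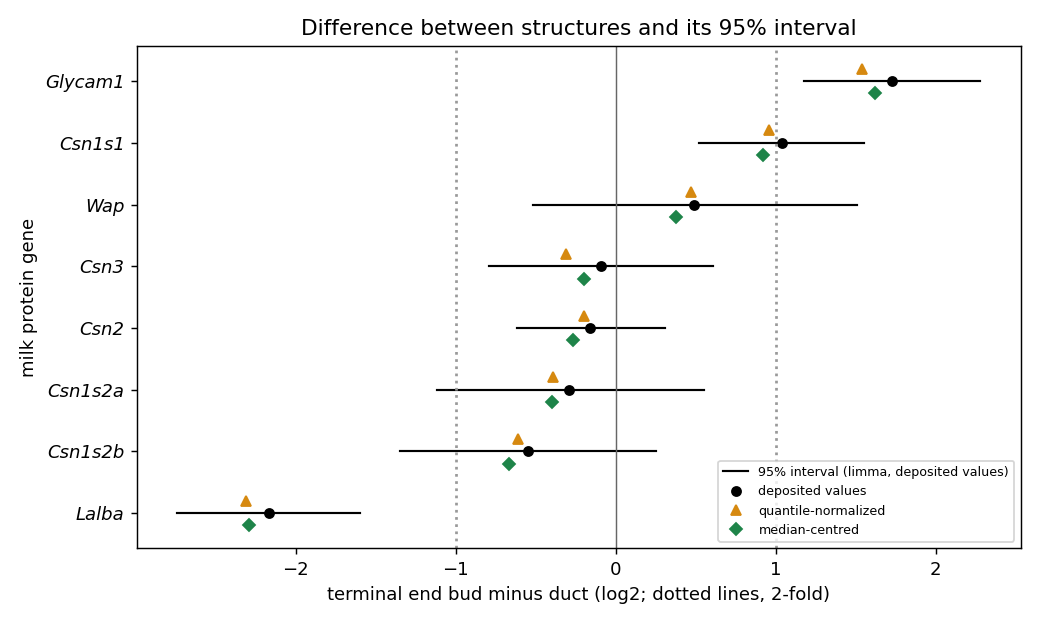
TEB minus duct difference in log2 units (horizontal axis) for each gene, on the deposited values with limma's 95% interval (black) and after quantile normalization (triangles) or median centring (diamonds), which have no interval drawn. Lalba lies beyond 2-fold lower and Glycam1 beyond 2-fold higher under each scaling, and Csn1s1 lies at the 2-fold line.

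The 2 genes with the largest differences went in opposite directions on the same arrays. Within each array, Glycam1 minus Lalba was 3.37 and 2.66 log2 units in TEBs, against -0.76 and -1 in ducts. A constant shift of all values of an array cancels in this measure. The change of 3.9 log2 units, or 14.9-fold, exceeded the SDs of 0.5 in TEBs and 0.17 in ducts. Set against Csn3 on the same array, Lalba changed by -2.08, Glycam1 by 1.82 and Csn1s1 by 1.13 log2 units in TEBs relative to ducts. The SDs of these gaps in TEBs and ducts were 0.61 and 0.31 for Lalba, 0.11 and 0.14 for Glycam1, and 0.3 and 0.08 for Csn1s1. Csn3 itself varied between replicate arrays, as given above. With 2 arrays against 2, an exact two-sided permutation test of any one such value cannot give a p below 0.33. These pairs were chosen after their values had been seen.

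The differences of the 8 milk protein genes ran in both directions. Their median was -0.12 log2 units, beside 0.11 over all IDs, with 3 genes higher and 5 lower in TEBs. Without overlap between arrays, 2 were higher and 3 lower, where 33.8% of all IDs were higher in this sense and 19.6% lower (25.6% and 25.9% after quantile normalization). At least 2-fold apart without overlap were 2 genes higher (Glycam1 and Csn1s1) and 1 lower (Lalba), where 4.43% of all IDs were higher and 2.63% lower (3.55% and 3.42% after quantile normalization). Csn1s1 left that count after quantile normalization or median centring.

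No gene of the 8 was called by limma (adjusted p under 0.05 and a change of 1.5-fold or more), and 0 of the 28399 IDs were called (0%). An unadjusted limma p under 0.05 was reached by Glycam1 and Csn1s1, higher in TEBs, and by Lalba, lower in TEBs, among 12.5% of all IDs higher and 7.27% lower (8.89% and 10.1% after quantile normalization). With a prior variance that followed brightness, Glycam1 and Lalba passed the call, where 3.75% of all IDs were called higher and 1.48% lower, and Csn1s1 had a limma adjusted p of 0.088. The same fit after quantile normalization called 2.49% higher and 2.67% lower, and Glycam1 and Lalba passed there too. The 5 other genes did not pass either test.

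**Figure D3:**
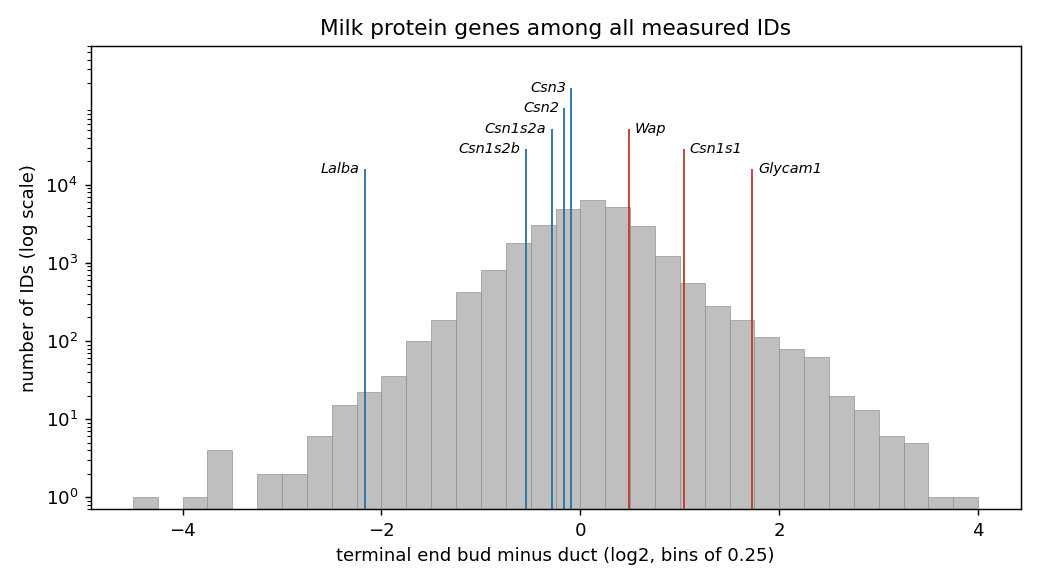
Histogram of the TEB minus duct differences of all 28399 IDs (log2, bins of 0.25; vertical axis on a log scale), with a line for each milk protein gene (red where higher in TEBs, blue where lower). Lalba at -2.17 and Glycam1 at 1.73 stand in the tails, and the other 6 genes lie between -0.55 and 1.04.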

How the data were processed

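RNA was measured on 2 terminal end bud and 2 duct arrays. Per the labels, 1.5 microg of total RNA gave biotinylated cRNA after ribosomal RNA was removed. The deposited values are on a log2 scale, 1 for each Ensembl ID and array. RMA by the authors and build mm9 are named in the submitters' processing notes. The version of RMA, the annotation and the way signals were combined per ID were not given in the sources used here. A wrong or cross-hybridising probe would pass into a gene's value unseen. All 4 values had at most 5 decimals in 1 of the 8 genes (Csn1s2b) and in 8419 of all IDs (tolerance 0.005 units of the fifth decimal).

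Groups came from sample titles. All 28399 IDs were fitted with limma 3.58.1 in R 4.3.3 without filter or block, with Benjamini-Hochberg adjustment over all IDs, a call needing adjusted p under 0.05 and 1.5-fold. The fit had 2 residual degrees of freedom and 2.51 from the prior. Array number limits the precision, and technical replicates do not show the spread between mice. Same-numbered arrays deviated together with r = 0.086 and were not paired. The script was tested on simulated data.

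The members and lists were chosen with earlier results of these data known. All 8 members were to be named. Lists of other milk, prolactin pathway and cell type genes were fixed by symbol and could not be applied, since no table given here pairs Ensembl IDs with symbols. They, and the genes most like Lalba, were not analysed here. Promoters are from RefSeq (GRCm38.p6), matched by symbol. Alternatives were quantile normalization, median centring, a brightness trend, robust moderation, a brightness filter, a replicate block and leaving out each array.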

Additional observations from a re-analysis of the deposited data

How the results depend on the processing

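Rescaling the arrays turned no direction, and the other fits to all arrays could not, since they left each difference unchanged. The count of 0 called IDs moved to 1485 with a prior variance that followed brightness, to 1426 among IDs at or above the median brightness, where 14200 were tested, and to 1466 (708 higher and 758 lower, against 1064 and 421 on the deposited values) with the brightness trend after quantile normalization, an alternative chosen after seeing the data. In the same 3 fits Lalba passed the call, with differences of -2.17, -2.17 and -2.31 and limma adjusted p of 0.0071, 0.0086 and 0.0069. Glycam1 passed in them too, with 1.73, 1.73 and 1.54 and limma adjusted p of 0.0077, 0.012 and 0.007. The brightness filter kept 3 of the 8 genes (Csn3, Lalba and Glycam1). Lalba was kept through its duct signal, so that fit is no separate check of it. IDs at least 2-fold apart without overlap numbered 873 of the 14200 at or above the median brightness, against 2004 of all 28399 IDs. With the replicate number as a block, 0 IDs were called, and limma adjusted p was 0.17 for Lalba and Glycam1.

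Leaving out single arrays leaves 1 array in a group, assumed to vary like the others. Such fits give effect sizes only, and could turn a sign only where the groups overlapped. Counts of IDs 2-fold apart without overlap ran from 2395 to 3318, the highest without duct replicate 1, where no overlap is easier to reach. Differences ran from -2.37 to -1.97 for Lalba, 1.58 to 1.88 for Glycam1, 0.89 to 1.19 for Csn1s1, -0.92 to -0.18 for Csn1s2b, -0.22 to -0.1 for Csn2 and 0.04 to 0.95 for Wap. The sign turned for 2 genes, both with overlapping groups. Csn1s2a ran from -0.68 to 0.11, positive without duct replicate 2. Csn3 ran from -0.32 to 0.14, positive at 0.14 without TEB replicate 2 and at 0.12 without duct replicate 1. The lists fixed by symbol were not run. Without detection calls, signal over background is unknown for all 8 genes, and Csn2, Csn1s2b, Wap, Csn1s2a and Csn1s1 lay below the median of each array. Lalba lay below the array median in TEBs only.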
